A study of Mus musculus with 32 samples.

Results

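The genes described here are 43 members of the interferon response and of antigen presentation, chosen by symbol from a list. They were found as rows among 54838 genes listed in the deposited table, of which 48586 carried counts, in total RNA libraries of mouse hind-leg muscle. By role they are 2 chemokines, 2 sensors of viral RNA, 5 transcription factors, 2 MHC transactivators, 11 interferon-inducible GTPases of the IRG and GBP families, 11 antiviral effectors, 6 genes of the MHC class I pathway and 4 of the class II pathway. Male mice aged up to 3 months were sampled in 3 states. Sick knock-in mice carried M743T on both Gne alleles and were called sick by the submitters, healthy knock-in mice carried the same alleles and were called healthy, and wild-type mice carried none. Gne encodes the bifunctional enzyme that starts the making of sialic acid, and its human counterpart is mutated in GNE myopathy. Gastrocnemius gave 3 sick, 3 healthy and 4 wild-type libraries, and quadriceps and tibialis each gave 3, 4 and 4, so that 32 libraries were compared. The sources used here name neither the strain, nor the signs of sickness, nor the mouse behind each library. The p-values therefore rest on the spread among libraries, some of which may be technical.

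Interferons are cytokines that tell cells of infection. Type I interferons act through a complex that includes STAT2 and IRF9 and binds the interferon-stimulated response element, and interferon gamma acts at gamma-activated sites and through IRF1. The induced genes encode GTPases that attack the vacuoles of intracellular microbes, effectors that block viral replication, and the machinery that shows peptides to T cells. MHC class I molecules are carried by nearly all nucleated cells, with skeletal muscle fibres holding little, and class II molecules mostly by dendritic cells, macrophages and B cells. In whole muscle, fewer cells of a type and less RNA per cell cannot be told apart.

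The windows before the start sites of these genes were searched because interferon signalling acts there. RefSeq windows on GRCm38.p6 were at hand for 32 of the 43 members. The 250 bases before the start site were searched on both strands for the interferon-stimulated response element (GAAA, any 2 bases, GAAA, or its reverse complement), for the gamma-activated site, TTCNNNGAA, which reads alike on both strands, and for the Y box of MHC class II promoters, CTGATTGG or CCAATCAG. The response element was found in 16 of the 32 members, the gamma-activated site in 9 and the Y box in 7. The 32 members have 38 windows, of which 16, 9 and 7 held the motifs in that order, and over the 32851 windows of all genes in the table the shares were 2.98%, 7.02% and 3.83%. All 7 GTPase genes with a window held the response element, as did 6 of 9 antiviral effectors. The Y box was found in both class II genes with a window, H2-Aa and H2-Eb1. In Igtp, Irgm2 and Tgtp2 a gamma-activated site began 11 bases before a response element, an arrangement found in 5 of all 32851 windows (0.0152%). The step of 11 bases was taken from these members, whose windows are among the 5, so its rarity is no test. The Igtp and Irgm2 windows share 172 of 250 bases in runs of 10 or more. The 7 windows of genes on which the results turn are printed 5′ to 3′, with matches to any of the 3 motifs in capitals. Igtp and Irgm2 overlap on the same strand, and their windows share a run of 55 bases, Gbp7 carries a response element and a pair of gamma-activated sites, Isg15 carries overlapping response elements, B2m carries a single one, and H2-Aa and H2-Eb1 carry the Y box. The regions are chr11:58199306-58199555, plus strand for Igtp, chr11:58214727-58214976, plus strand for Irgm2, chr3:142530086-142530335, plus strand for Gbp7, chr4:156200819-156201068, minus strand for Isg15, chr2:122147437-122147686, plus strand for B2m, chr17:34287824-34288073, minus strand for H2-Aa and chr17:34305617-34305866, plus strand for H2-Eb1.
Igtp: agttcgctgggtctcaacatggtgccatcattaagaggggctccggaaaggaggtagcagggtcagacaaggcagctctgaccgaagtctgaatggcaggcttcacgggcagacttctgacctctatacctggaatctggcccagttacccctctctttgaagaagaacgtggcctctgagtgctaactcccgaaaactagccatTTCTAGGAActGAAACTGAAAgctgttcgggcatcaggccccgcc
Irgm2: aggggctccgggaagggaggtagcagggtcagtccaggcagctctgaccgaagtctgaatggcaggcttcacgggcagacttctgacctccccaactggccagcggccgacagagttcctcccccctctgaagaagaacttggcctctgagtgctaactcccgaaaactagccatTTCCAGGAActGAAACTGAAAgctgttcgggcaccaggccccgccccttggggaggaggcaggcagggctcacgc
Gbp7: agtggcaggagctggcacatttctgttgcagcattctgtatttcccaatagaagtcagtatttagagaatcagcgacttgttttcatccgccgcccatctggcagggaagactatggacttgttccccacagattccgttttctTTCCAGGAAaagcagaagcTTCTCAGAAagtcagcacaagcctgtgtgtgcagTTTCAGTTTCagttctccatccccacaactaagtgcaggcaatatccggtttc
Isg15: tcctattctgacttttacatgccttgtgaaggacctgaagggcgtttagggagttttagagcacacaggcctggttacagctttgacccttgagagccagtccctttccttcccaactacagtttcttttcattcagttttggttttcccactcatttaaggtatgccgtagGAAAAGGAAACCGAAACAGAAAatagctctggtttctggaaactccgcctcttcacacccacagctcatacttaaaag
B2m: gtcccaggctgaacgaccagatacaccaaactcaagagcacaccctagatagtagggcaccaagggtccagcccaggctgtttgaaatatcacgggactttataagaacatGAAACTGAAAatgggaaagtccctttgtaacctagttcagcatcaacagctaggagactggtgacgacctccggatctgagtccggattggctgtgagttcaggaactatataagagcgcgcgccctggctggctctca
H2-Aa: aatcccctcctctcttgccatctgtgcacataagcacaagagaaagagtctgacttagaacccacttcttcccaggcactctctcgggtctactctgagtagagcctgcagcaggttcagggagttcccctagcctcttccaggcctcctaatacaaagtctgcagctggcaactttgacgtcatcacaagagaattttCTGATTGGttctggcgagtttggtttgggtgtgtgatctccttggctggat
H2-Eb1: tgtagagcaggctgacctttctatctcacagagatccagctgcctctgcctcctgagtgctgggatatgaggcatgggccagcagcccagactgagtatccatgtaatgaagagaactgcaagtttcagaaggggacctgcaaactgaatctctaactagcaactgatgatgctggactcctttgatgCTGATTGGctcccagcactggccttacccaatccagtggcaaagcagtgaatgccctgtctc
A match is a run of letters and no evidence of binding, and a window without one says only that these letters are not in it.

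Total counts per library ran from 7685164 to 42588233. Values are given in the usual CPM unit, counts relative to the library total after TMM scaling. Markers of skeletal muscle fibres summed to between 108000 and 234000 CPM in every library, whereas T and NK cell markers summed to between 0.435 and 3.55 CPM and B cell markers to between 0.175 and 3.68 CPM. Markers of kidney tubule summed to between 64.4 and 82.9 CPM in the 4 wild-type tibialis libraries, against at most 2.24 CPM in the knock-in tibialis libraries, and reached 23.7 CPM in 1 healthy gastrocnemius library. Of the 32 libraries, quadriceps healthy replicate 1 stood highest in the members. There 42 of 43 were above the wild-type mean of the muscle, 20 of them by more than 1 on the log2 scale. Tibialis sick replicate 1 stood lowest by the median, with 3 members above that mean and 20 below it by more than 1. Quadriceps healthy replicate 4 stood apart in the class I genes.

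The members differed widely in level. Per kilobase of exon, B2m, which encodes the light chain of every class I molecule, stood at 62.9 to 166 CPM in the means of the 9 groups. The class I heavy chain H2-D1 stood at 35 to 79.9 CPM per kilobase, and Cd74, the invariant chain that escorts class II molecules, at 7.86 to 39.2. Igtp lay between 0.742 and 6.78 CPM per kilobase and Isg15 between 0.479 and 4.79. Ciita, the master transactivator of class II genes, lay between 0.0435 and 0.149, and Cxcl10 between 0.0147 and 0.434. Of the 43 members, 40 passed the filter on low counts in gastrocnemius, 41 in quadriceps and 40 in tibialis. Cxcl10 and Tgtp2 were below it in all 3 muscles and Oas1a in gastrocnemius and tibialis. Tgtp2, an interferon-inducible GTPase gene, had no read in the 3 sick gastrocnemius libraries, against 21 reads over the 4 wild-type libraries, 12 of them in replicate 4. Total counts were 9837481 to 15080552 in these sick and 13837042 to 30139230 in these wild-type libraries. Tgtp2 has a near copy, Tgtp1.

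**Figure D1:**
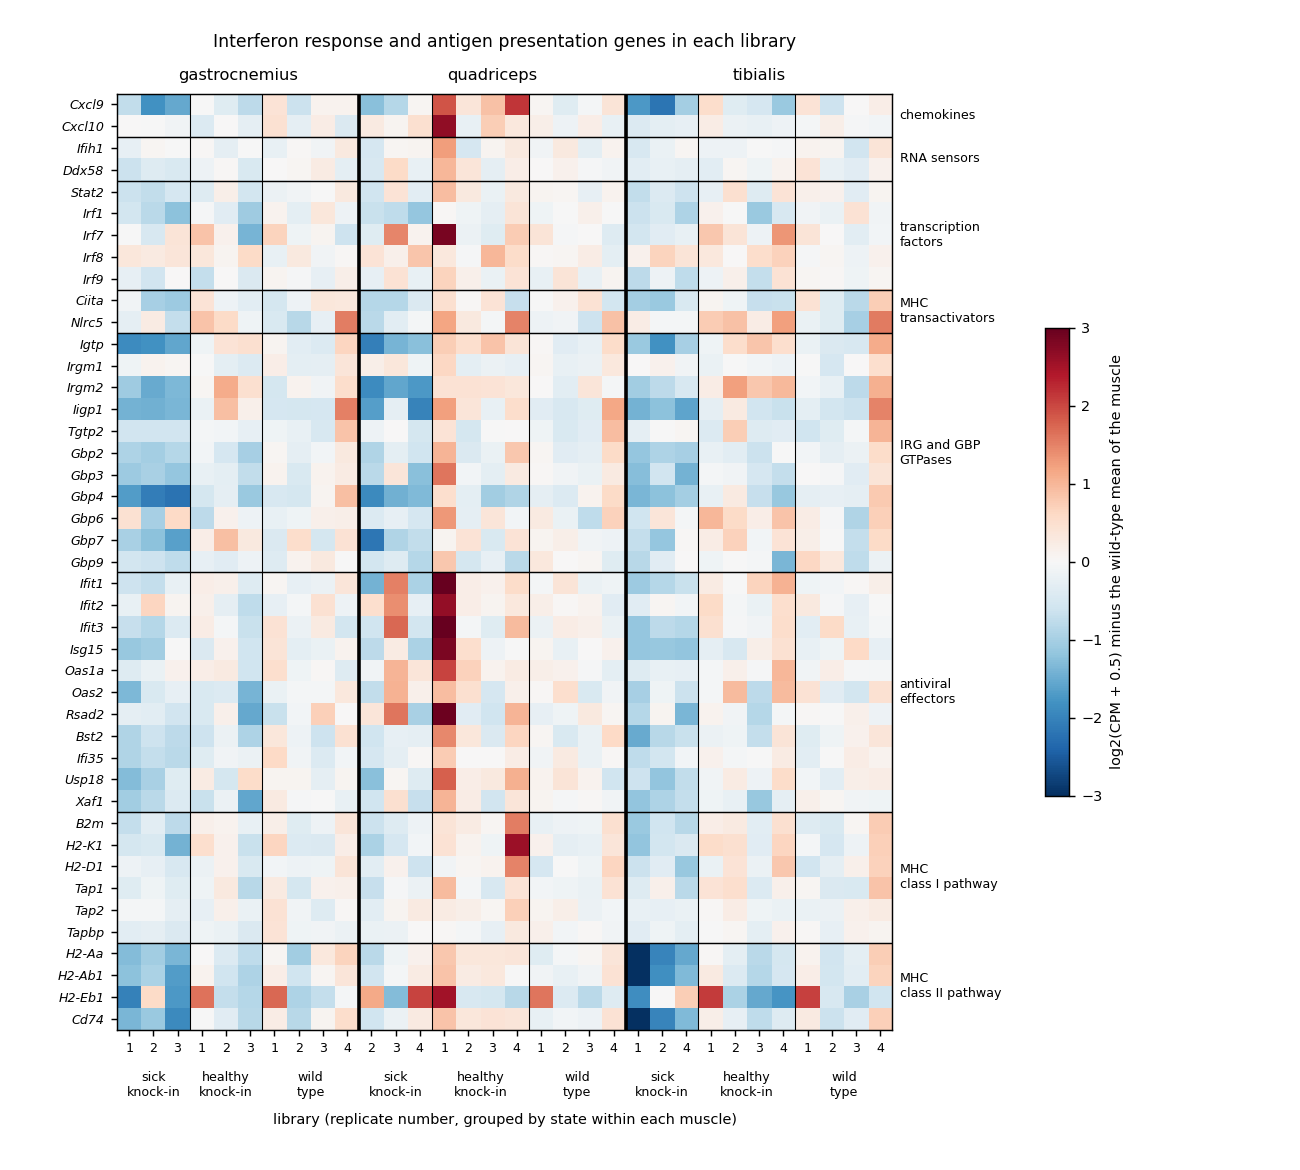
Colour gives log2(CPM + 0.5) of each member (rows, grouped by role) in each of 32 libraries (columns) minus the wild-type mean of the same muscle, with colours ending at -3 and 3. Sick columns are mostly blue in the GTPase, chemokine and class II rows, and quadriceps healthy replicate 1 is red in most rows.

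Sick mutant mice were first set against wild-type mice, to ask what accompanies sickness together with the alleles. Those of the 43 members that passed the test were lower in sick muscle. They were 6, 4 and 4 of 10 GTPase genes in gastrocnemius, quadriceps and tibialis, 6 of 10 antiviral effectors in tibialis, and 2 and 3 of 4 class II genes in gastrocnemius and tibialis, with Cxcl9 in those 2 muscles and Irf1 in quadriceps. At a limma adjusted p under 0.05, 9 of 40 members tested were lower in sick gastrocnemius, where 6.52% of all genes tested were lower. In quadriceps 5 of 41 were lower, against 7.49% of all genes, and in tibialis 14 of 40, against 9.61%. None was higher, while 8.22%, 10.5% and 8.44% of all genes were higher in the 3 muscles. The median log2 fold change of the members was -0.74, -0.22 and -0.77 in gastrocnemius, quadriceps and tibialis, against -0.03, 0.00 and -0.05 over all genes tested. The libraries of sick and wild-type muscle did not overlap, with sick lower, for 21 of 40 members tested in gastrocnemius (16.5% of all genes). The same held for 6 of 41 in quadriceps (16.9%) and for 19 of 40 in tibialis (17.5%). In quadriceps the share of the members was below that of all genes. Igtp and Gbp4 were the only members that passed in all 3 muscles. Same-numbered libraries of different muscles deviated together in 26 of 28 pairs (correlation above 0.1), so the 3 muscles may not be independent. In tibialis, wild-type libraries also held 64.4 to 82.9 CPM of kidney tubule markers, against 0.459 to 0.706 CPM in sick libraries. State and that signal cannot be told apart in this contrast.

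Single libraries carried much of these counts. Without sick replicate 2, the members called lower in gastrocnemius numbered 0, those in quadriceps 1 (Irgm2) and those in tibialis 5 (Gbp2, Gbp3, H2-Aa, H2-Ab1 and Cd74), while 3.89%, 0.597% and 6.49% of all genes were then called. In gastrocnemius 1 member was called without sick replicate 3, 4 without sick replicate 1 and 5 without wild-type replicate 3. In quadriceps 2 were called without sick replicate 3 or without wild-type replicate 1 or 3, and 3 without wild-type replicate 2. In tibialis 6 were called without sick replicate 1, 8 without wild-type replicate 1 or 2, and 9 without wild-type replicate 4. No member reversed its direction.

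**Figure D2:**
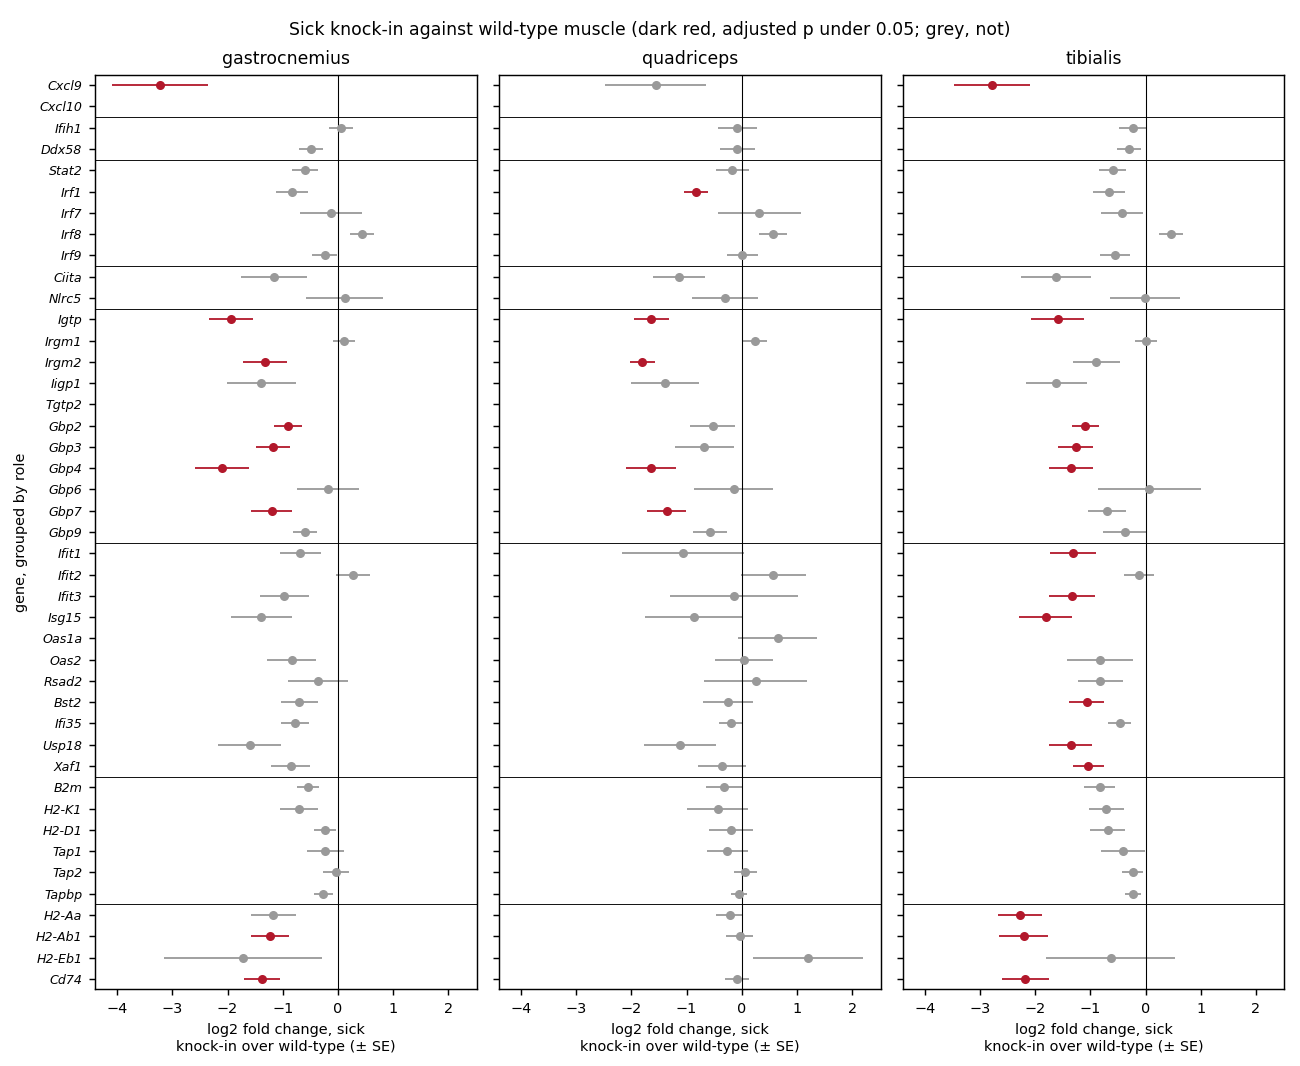
Points give the log2 fold change of sick knock-in over wild-type for each member tested, with its standard error, in gastrocnemius, quadriceps and tibialis. Dark red marks the 9, 5 and 14 members at an adjusted p under 0.05, all of them below 0.

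Against healthy knock-in mice, which carry the same alleles, the sick mice again had lower levels of the members that passed. In gastrocnemius 3 of 40 members were lower (Igtp, Irgm2 and Gbp7), a share near the 6.90% of all genes that were lower. In quadriceps 5 of 41 were lower (Cxcl9, Irf1, Igtp, Irgm2 and Gbp7), against 7.51%, and in tibialis 11 of 40, against 6.30%. None was higher, while 7.17%, 10.1% and 5.03% of all genes were. The median log2 fold change of the members was -0.49, -0.64 and -0.93 in the 3 muscles in the same order, against 0.01, -0.01 and -0.03 over all genes. Igtp and Irgm2 passed in every muscle, and Igtp was lower in all 6 comparisons of sick with other mice. The comparisons share their sick libraries. Same-numbered libraries of different muscles also deviated together, so agreement over the 3 muscles may not be independent. Without sick replicate 2 the counts were 1 (Igtp), 2 (Igtp and Irgm2) and 0 in gastrocnemius, quadriceps and tibialis. In tibialis none was called without sick replicate 1, and 3, 5 and 7 were called without healthy replicate 2, 4 and 1. When the sick and healthy tibialis libraries alone were fitted, 0 members passed (23 at an unadjusted p under 0.05) and 0.681% of all genes did. In quadriceps 3 were called without sick replicate 3 or healthy replicate 2, and 2 without healthy replicates 1 and 4 together, an alternative chosen after the values were seen.

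Igtp, also called Irgm3 (ENSMUSG00000078853; GRCm38 chromosome 11, 58199556 to 58207591, plus strand), encodes a regulator of the family that sits on endomembranes. In gastrocnemius Igtp stood at 1.32, 1.41 and 1.78 CPM in sick libraries, 5.66, 8.51 and 8.88 CPM in healthy libraries and 6.65, 4.89, 4.62 and 10.1 CPM in wild-type libraries. In quadriceps it stood at 1.7, 3.02 and 3.36 CPM in sick libraries, 14.7, 12.6, 16.1 and 11.5 CPM in healthy libraries and 8.84, 6.79, 7.31 and 12.9 CPM in wild-type libraries, and in tibialis at 2.69, 1.45 and 2.99 CPM in sick libraries, 5.87, 9.42, 11.8 and 9.35 CPM in healthy libraries and 5.53, 4.65, 4.42 and 14.5 CPM in wild-type libraries. Every sick library lay below every healthy and every wild-type library of its muscle. The log2 fold change of sick over wild-type was -1.94 ± 0.40 (adjusted p = 0.0127) in gastrocnemius, -1.64 ± 0.32 (adjusted p = 0.0118) in quadriceps and -1.59 ± 0.48 (adjusted p = 0.0398) in tibialis (estimate ± SE here and below). The gastrocnemius and quadriceps calls did not pass without sick replicate 2 (adjusted p = 0.0693 and 0.0974), and the tibialis call did not pass without sick replicate 1 or 2 or wild-type replicate 1, 2 or 4 (adjusted p = 0.0529 to 0.19). Over healthy knock-in the change was -2.31 ± 0.42 (adjusted p = 0.00696), -2.45 ± 0.32 (adjusted p = 0.0036) and -2.0 ± 0.47 (adjusted p = 0.0266) in the 3 muscles. The tibialis value did not pass without sick replicate 1 or 2 or healthy replicate 2 (adjusted p = 0.061 to 0.119), and the other 2 passed without each library in turn.

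Irgm2 (ENSMUSG00000069874; GRCm38 chromosome 11, 58199618 to 58222782, plus strand) encodes another regulatory IRG protein. In GENCODE vM21 its annotated span overlaps most of Igtp on the same strand, with 162 exonic bases shared, and the RefSeq window printed for Irgm2 lies inside that span, not before its first base. Reads in those bases cannot be told apart, and they make up 8.01% of the exonic bases of Igtp and 4.39% of those of Irgm2. Irgm2 was at 3.26, 2.29 and 2.62 CPM in sick libraries, 7.76, 16.6 and 10.6 CPM in healthy libraries and 4.98, 8.01, 6.86 and 11 CPM in wild-type libraries of gastrocnemius. In quadriceps it was at 3.36, 4.3 and 3.84 CPM in sick libraries, 18.6, 18.7, 18.3 and 17.6 CPM in healthy libraries and 14, 11, 17.7 and 13.1 CPM in wild-type libraries, and in tibialis at 3.18, 3.91 and 4.94 CPM in sick libraries, 8.32, 17.2, 12.7 and 14.4 CPM in healthy libraries and 6.68, 6.01, 3.92 and 15.4 CPM in wild-type libraries. Sick libraries lay below all others except in tibialis, where wild-type replicate 3 fell within the sick range. The change over wild-type was -1.33 ± 0.40 (adjusted p = 0.0461) in gastrocnemius and -1.80 ± 0.22 (adjusted p = 0.00563) in quadriceps, with -0.89 ± 0.43 (adjusted p = 0.16) in tibialis. The quadriceps call passed without each library in turn, and the gastrocnemius call did not pass without sick replicate 1, 2 or 3 or wild-type replicate 2, 3 or 4 (adjusted p = 0.0529 to 0.183). Over healthy knock-in the change was -2.01 ± 0.42 (adjusted p = 0.0118), -2.25 ± 0.22 (adjusted p = 0.00219) and -1.70 ± 0.41 (adjusted p = 0.0287) in gastrocnemius, quadriceps and tibialis. The gastrocnemius value did not pass without sick replicate 2 (adjusted p = 0.0591) and the tibialis value did not pass without sick replicate 1 or 2 or healthy replicate 2, 3 or 4 (adjusted p = 0.0508 to 0.106). Irgm1, the third regulator of the family, did not pass in any comparison, with changes over wild-type of 0.10 ± 0.20, 0.24 ± 0.22 and 0.01 ± 0.20. It was picked out after its values were seen, and whether its change differs from that of Igtp was not tested.

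Gbp7 (ENSMUSG00000040253; GRCm38 chromosome 3, 142530342 to 142550149, plus strand) belongs to the guanylate-binding proteins, which coat pathogen vacuoles, and shares 637 of its exonic bases with a processed pseudogene, Gm43802. Its level was 7.63, 6.36 and 4.72 CPM in sick libraries, 17.8, 29.6 and 19.1 CPM in healthy libraries and 11.5, 22.7, 10.6 and 21.1 CPM in wild-type libraries of gastrocnemius. In quadriceps Gbp7 was at 4.96, 12.8 and 14.2 CPM in sick libraries, 25.5, 32.4, 17.4 and 32.3 CPM in healthy libraries and 25.5, 27.6, 22.5 and 21.7 CPM in wild-type libraries, and in tibialis at 6.73, 4.78 and 11.5 CPM in sick libraries, 13.2, 18.5, 10.6 and 15.1 CPM in healthy libraries and 12.7, 11.2, 6.67 and 16.9 CPM in wild-type libraries. Sick and wild-type libraries were apart in gastrocnemius and quadriceps and overlapped in tibialis. The change over wild-type was -1.20 ± 0.37 (adjusted p = 0.0492), -1.36 ± 0.35 (adjusted p = 0.027) and -0.70 ± 0.35 (adjusted p = 0.169) in gastrocnemius, quadriceps and tibialis. The gastrocnemius call did not pass without sick replicate 1, 2 or 3 or wild-type replicate 2 or 4 (adjusted p = 0.0671 to 0.157), and the quadriceps call did not pass without sick replicate 2 or 3 or wild-type replicate 1, 2 or 3 (adjusted p = 0.0507 to 0.171). Over healthy knock-in the change was -1.75 ± 0.39 (adjusted p = 0.0153) in gastrocnemius and -1.45 ± 0.36 (adjusted p = 0.0233) in quadriceps. These values did not pass without sick replicate 2 or 3 (adjusted p = 0.05 to 0.061) in gastrocnemius and did not pass without sick replicate 2 or healthy replicate 2 (adjusted p = 0.0512 to 0.13) in quadriceps.

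Among the other GTPases, Gbp4 was lower in all 3 sick muscles than in wild-type, with log2 fold changes of -2.10 ± 0.49, -1.65 ± 0.45 and -1.35 ± 0.40, and its calls were lost without sick replicate 2 (adjusted p = 0.102, 0.205 and 0.136). Over all alternative fits its calls were lost in 2 of 14, 5 of 15 and 8 of 14 in gastrocnemius, quadriceps and tibialis. Sick libraries lay below wild-type ones in each muscle, and the mean was 1.72 ± 0.448 CPM in sick and 8.92 ± 4.76 CPM in wild-type gastrocnemius (SD, n = 3 and 4). Gbp2 was lower than in wild-type at -0.91 ± 0.25 in gastrocnemius and -1.09 ± 0.24 in tibialis, and Gbp3 at -1.18 ± 0.31 and -1.27 ± 0.32. The tibialis call of Gbp2 passed without each library in turn, and that of Gbp3 did not pass without sick replicate 1 or 4 (adjusted p = 0.0545 to 0.0623). In gastrocnemius neither passed without sick replicate 2 (adjusted p = 0.143 for Gbp2 and 0.105 for Gbp3). Over all alternative fits the gastrocnemius call was lost in 9 of 14 for Gbp2 and 7 of 14 for Gbp3. In all, 6 of 10 GTPase genes tested were lower than wild-type in sick gastrocnemius, 4 of 10 in quadriceps and 4 of 10 in tibialis. Iigp1, Gbp6 and Gbp9 passed in no comparison, and Gbp4, Gbp8 and Gbp9 share some 60 exonic bases, which can split their reads.

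**Figure D3:**
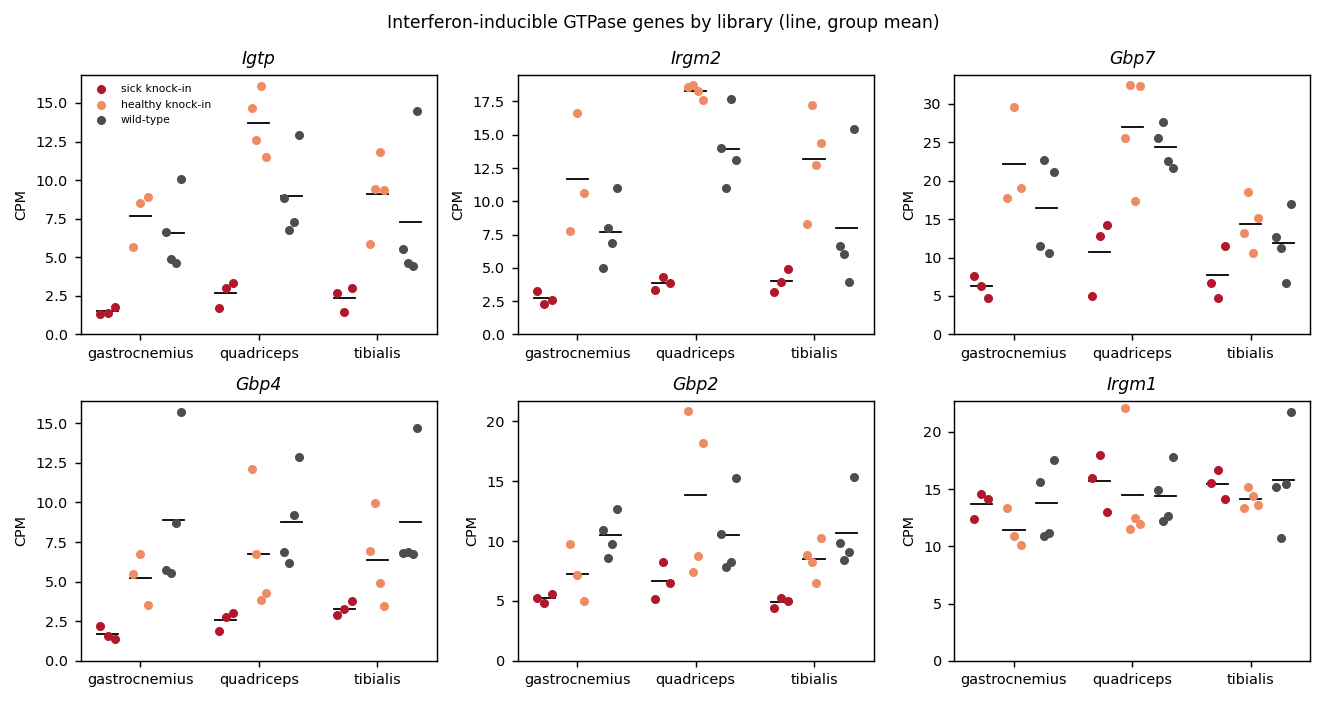
CPM of 6 GTPase genes in each library (points) with the group mean (line), for sick knock-in, healthy knock-in and wild-type mice in each muscle. Sick libraries of Igtp lie between 1.32 and 3.36 CPM in the 3 muscles, below all others of the same muscle, whereas those of Irgm1 lie among the others.

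Of the antiviral effectors tested in tibialis, 6 of 10 were lower in sick than in wild-type mice (Ifit1, Ifit3, Isg15, Bst2, Usp18 and Xaf1), and 4 of 10 were lower than in healthy mice (Ifit1, Ifit3, Isg15 and Usp18). In gastrocnemius 0 of 10 and in quadriceps 0 of 11 passed against wild-type by limma-voom (4 and 0 at an unadjusted p under 0.05), and the interaction tests that compare muscles, given below with the class II genes, called none of them. Ifit1 (ENSMUSG00000034459; GRCm38 chromosome 19, 34640871 to 34650009, plus strand), whose protein binds viral RNA that lacks the host cap, stood at 0.428, 0.582 and 0.747 CPM in sick libraries, 1.84, 1.47, 2.61 and 3.53 CPM in healthy libraries and 1.29, 1.35, 1.52 and 1.74 CPM in wild-type libraries of tibialis. In gastrocnemius it was at 0.763, 0.678 and 1.15 CPM in sick libraries, 1.74, 1.66 and 0.979 CPM in healthy libraries and 1.53, 1.13, 1.21 and 2.02 CPM in wild-type libraries, and in quadriceps at 0.207, 4.88 and 0.48 CPM in sick libraries, 18.3, 1.66, 1.55 and 2.25 CPM in healthy libraries and 1.29, 1.97, 1.14 and 1.22 CPM in wild-type libraries. Sick tibialis was below both other states without overlap, while in quadriceps sick replicate 3 and healthy replicate 1 stood high above the rest. In tibialis the change of Ifit1 was -1.31 ± 0.42 (adjusted p = 0.0489) over wild-type and -1.91 ± 0.40 (adjusted p = 0.0204) over healthy knock-in. The wild-type contrast did not pass without sick replicate 1, 2 or 4 or wild-type replicate 1, 2, 3 or 4 (adjusted p = 0.0601 to 0.159), and the healthy contrast did not pass without sick replicate 1 or 2 (adjusted p = 0.0614 to 0.0789).

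Ifit3 (ENSMUSG00000074896; GRCm38 chromosome 19, 34583531 to 34588731, plus strand), a partner of Ifit1 with a near copy, Ifit3b, was at 0.367, 0.623 and 0.574 CPM in sick libraries, 2.18, 1.38, 1.3 and 2.29 CPM in healthy libraries and 1.06, 2.37, 1.16 and 1.37 CPM in wild-type libraries of tibialis. Gastrocnemius held 0.763, 0.626 and 1.05 CPM in sick libraries, 1.89, 1.46 and 0.784 CPM in healthy libraries and 2.26, 1.31, 1.97 and 0.905 CPM in wild-type libraries, and quadriceps held 0.672, 5.34 and 0.72 CPM in sick libraries, 26.5, 1.2, 0.886 and 2.96 CPM in healthy libraries and 1.08, 1.56, 1.49 and 1.05 CPM in wild-type libraries. The order of the states in tibialis was that of Ifit1, and the same 2 quadriceps libraries were high. The tibialis change was -1.33 ± 0.42 (adjusted p = 0.0458) over wild-type and -1.69 ± 0.41 (adjusted p = 0.0286) over healthy knock-in. Over wild-type it did not pass without sick replicate 1, 2 or 4 or wild-type replicate 1, 2, 3 or 4 (adjusted p = 0.0516 to 0.121), and over healthy knock-in it did not pass without sick replicate 1 or 2 or healthy replicate 1 or 4 (adjusted p = 0.0508 to 0.0887).

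Usp18 (ENSMUSG00000030107; GRCm38 chromosome 6, 121245906 to 121270917, plus strand) removes the ubiquitin-like ISG15 from proteins and damps type I interferon signalling. It was read at 0.795, 0.374 and 0.689 CPM in sick libraries, 1.36, 1.87, 1.3 and 2.43 CPM in healthy libraries and 1.38, 1.1, 1.74 and 1.82 CPM in wild-type libraries of tibialis. The corresponding levels were 0.139, 0.313 and 0.735 CPM in sick libraries, 1.38, 0.598 and 1.83 CPM in healthy libraries and 1.18, 1.18, 0.82 and 1.18 CPM in wild-type libraries of gastrocnemius and 0.258, 1.39 and 0.88 CPM in sick libraries, 5.83, 1.57, 1.74 and 3.31 CPM in healthy libraries and 1.46, 1.88, 1.44 and 0.7 CPM in wild-type libraries of quadriceps. Sick tibialis libraries were again the lowest. The tibialis change was -1.36 ± 0.39 (adjusted p = 0.0331) over wild-type and -1.57 ± 0.38 (adjusted p = 0.0287) over healthy knock-in. It did not pass without sick replicate 2 or wild-type replicate 1, 3 or 4 (adjusted p = 0.0538 to 0.166) against wild-type and did not pass without sick replicate 1 or 2 or healthy replicate 2 or 4 (adjusted p = 0.0574 to 0.124) against healthy knock-in. Isg15 itself changed in tibialis by -1.81 ± 0.48 over wild-type (call lost in 4 of 14 alternative fits). Over healthy knock-in it changed by -1.83 ± 0.48 (call lost in 8 of 14). Bst2, a tether that holds budding virions, changed by -1.07 ± 0.32 over wild-type (call lost in 7 of 14). Xaf1 changed by -1.04 ± 0.28 over wild-type (call lost in 5 of 14). These are lowly read genes, with 34 Ifit1 reads over the 3 sick tibialis libraries and 107 over the 4 wild-type ones.

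Cxcl9 (ENSMUSG00000029417; GRCm38 chromosome 5, 92321347 to 92328079, minus strand), the interferon-gamma-induced chemokine that draws activated T cells, was lower in sick muscle in 3 of 6 comparisons. It was at 0.555, 0 and 0.105 CPM in sick libraries, 1.23, 0.864 and 0.522 CPM in healthy libraries and 1.85, 0.633, 1.4 and 1.39 CPM in wild-type libraries of gastrocnemius. Quadriceps had 0.0517, 0.232 and 0.88 CPM in sick libraries, 4.34, 1.2, 1.93 and 5.32 CPM in healthy libraries and 0.863, 0.52, 0.758 and 1.22 CPM in wild-type libraries, and tibialis had 0.367, 0.125 and 0.919 CPM in sick libraries, 3.61, 1.73, 1.52 and 0.811 CPM in healthy libraries and 3.27, 1.35, 2.39 and 2.78 CPM in wild-type libraries. Sick and wild-type libraries were apart in gastrocnemius and tibialis, and sick and healthy libraries in quadriceps. Cxcl9 changed by -3.22 ± 0.87 (adjusted p = 0.0332) over wild-type in gastrocnemius and by -2.79 ± 0.69 (adjusted p = 0.0213) in tibialis, and by -3.29 ± 0.88 (adjusted p = 0.0285) over healthy knock-in in quadriceps. The gastrocnemius call did not pass without sick replicate 2 or 3 or wild-type replicate 1 or 3 (adjusted p = 0.0549 to 0.193), the tibialis call did not pass without sick replicate 2 (adjusted p = 0.11) and the quadriceps call did not pass without sick replicate 2 or 3 (adjusted p = 0.0803 to 0.213). Read counts were small, with 9, 14 and 25 over the 3 sick libraries and 133, 78 and 187 over the 4 wild-type libraries of gastrocnemius, quadriceps and tibialis. The quadriceps value over wild-type was -1.56 ± 0.91 (adjusted p = 0.239).

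Of the RNA sensors, neither Ddx58, which encodes RIG-I, nor Ifih1, which encodes MDA5, passed in any comparison. Ddx58 (ENSMUSG00000040296; GRCm38 chromosome 4, 40203773 to 40239828, minus strand), the more highly read of the pair per kilobase, was at 4.23, 5.11 and 4.83 CPM in sick libraries, 6.09, 6.98 and 4.83 CPM in healthy libraries and 6.86, 7.1, 8.23 and 5.5 CPM in wild-type libraries of gastrocnemius. In quadriceps it was at 5.06, 11.2 and 6.16 CPM in sick libraries, 15.1, 9.43, 5.91 and 8.39 CPM in healthy libraries and 7.28, 8.01, 7.13 and 6.74 CPM in wild-type libraries, and in tibialis at 5.93, 6.44 and 6.2 CPM in sick libraries, 5.93, 7.95, 6.88 and 8.11 CPM in healthy libraries and 10.3, 6.43, 5.87 and 8.37 CPM in wild-type libraries. Sick and wild-type ranges were apart in gastrocnemius and overlapped in quadriceps and tibialis. Its change over wild-type was -0.49 ± 0.22 (adjusted p = 0.143), -0.08 ± 0.32 (adjusted p = 0.89) and -0.30 ± 0.21 (adjusted p = 0.313) in gastrocnemius, quadriceps and tibialis.

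Of the 5 transcription factors, Irf1 passed, in quadriceps. Irf1 (ENSMUSG00000018899; GRCm38 chromosome 11, 53770014 to 53778374, plus strand) encodes the factor that relays interferon gamma signals to GTPase and class I genes. Quadriceps held 6.1, 5.69 and 4.16 CPM in sick libraries, 10.2, 8.97, 8.13 and 13.1 CPM in healthy libraries and 9.01, 9.77, 11.1 and 9.89 CPM in wild-type libraries. Gastrocnemius held 6.87, 5.74 and 4.09 CPM in sick libraries, 10.1, 8.05 and 4.7 CPM in healthy libraries and 11.2, 8.37, 13.2 and 9.19 CPM in wild-type libraries, and tibialis 7.76, 8.89 and 6.26 CPM in sick libraries, 13.6, 12.3, 5.43 and 8.78 CPM in healthy libraries and 11.4, 10.7, 16.8 and 11.6 CPM in wild-type libraries. Sick libraries lay below all wild-type libraries in each muscle. The change over wild-type was -0.83 ± 0.21 (adjusted p = 0.0257) in quadriceps, -0.83 ± 0.29 (adjusted p = 0.073) in gastrocnemius and -0.67 ± 0.29 (adjusted p = 0.116) in tibialis. Over healthy knock-in it was -0.80 ± 0.22 (adjusted p = 0.0331) in quadriceps. These quadriceps calls did not pass without sick replicate 2 or 3 or wild-type replicate 1, 2 or 3 (adjusted p = 0.0504 to 0.0844) for wild-type and did not pass without sick replicate 2, 3 or 4 or healthy replicate 1 or 2 (adjusted p = 0.0541 to 0.0879) for healthy knock-in. Irf8, a factor of macrophages and dendritic cells, had positive values over wild-type of 0.44 ± 0.22, 0.56 ± 0.25 and 0.46 ± 0.22 that did not pass (adjusted p = 0.185, 0.13 and 0.151). Stat2, Irf7 and Irf9 passed in no comparison.

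Neither transactivator of MHC genes passed. Nlrc5 (ENSMUSG00000074151; GRCm38 chromosome 8, 94434356 to 94527272, plus strand), which drives class I genes, was at 0.902, 1.51 and 0.525 CPM in sick libraries, 2.54, 1.99 and 1.04 CPM in healthy libraries and 0.732, 0.452, 0.911 and 4.38 CPM in wild-type libraries of gastrocnemius. It was at 0.93, 1.51 and 1.92 CPM in sick libraries, 5.26, 2.59, 1.93 and 6.62 CPM in healthy libraries and 1.78, 1.85, 1.14 and 4.11 CPM in wild-type libraries of quadriceps and at 1.65, 1.29 and 1.26 CPM in sick libraries, 2.66, 2.93, 1.67 and 3.87 CPM in healthy libraries and 1.11, 0.931, 0.435 and 4.97 CPM in wild-type libraries of tibialis. Wild-type replicate 4 was the highest wild-type library in all 3 muscles, and sick and wild-type libraries overlapped in each. The change over wild-type was 0.12 ± 0.70, -0.30 ± 0.60 and -0.01 ± 0.63. For Ciita it was -1.16 ± 0.60 (adjusted p = 0.2), -1.14 ± 0.47 (adjusted p = 0.104) and -1.62 ± 0.63 (adjusted p = 0.0868).

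In the class I pathway, no member passed against wild-type by limma-voom in any muscle (1, 0 and 3 of 6 at an unadjusted p under 0.05 in gastrocnemius, quadriceps and tibialis), and B2m and H2-K1 fell in sick against healthy tibialis. B2m (ENSMUSG00000060802; GRCm38 chromosome 2, 122147686 to 122153083, plus strand) was at 44.5, 63.8 and 54.2 CPM in sick libraries, 112, 118, 77.7 and 137 CPM in healthy libraries and 74.9, 70.8, 102 and 167 CPM in wild-type libraries of tibialis. Gastrocnemius had 55.3, 73.1 and 52.6 CPM in sick libraries, 101, 97.3 and 78.5 CPM in healthy libraries and 102, 70.3, 81.8 and 117 CPM in wild-type libraries, and quadriceps had 56.8, 67.6 and 79.7 CPM in sick libraries, 115, 105, 92.8 and 260 CPM in healthy libraries and 76.6, 80.4, 80.8 and 125 CPM in wild-type libraries. Sick tibialis libraries lay below every other tibialis library, and quadriceps healthy replicate 4 was far above its group. The tibialis change was -1.01 ± 0.28 (adjusted p = 0.0398) over healthy knock-in and -0.83 ± 0.28 (adjusted p = 0.0545) over wild-type. The contrast with healthy mice did not pass without sick replicate 1, 2 or 4 or healthy replicate 1, 2 or 4 (adjusted p = 0.0543 to 0.107). H2-K1 (ENSMUSG00000061232; GRCm38 chromosome 17, 33996017 to 34000347, minus strand), a classical heavy chain, was at 18.7, 29.2 and 31.9 CPM in sick libraries, 62.9, 60.8, 34.3 and 67.3 CPM in healthy libraries and 41.3, 30.1, 38.9 and 71.6 CPM in wild-type libraries of tibialis. It was at 27.6, 29.4 and 14.7 CPM in sick libraries, 56.9, 44.3 and 25 CPM in healthy libraries and 62.8, 30.3, 29.6 and 46.7 CPM in wild-type libraries of gastrocnemius and at 23.4, 31.9 and 43.1 CPM in sick libraries, 61.7, 48.5, 41.6 and 271 CPM in healthy libraries and 49.7, 37.7, 39 and 58.4 CPM in wild-type libraries of quadriceps. Sick tibialis lay below healthy tibialis, and 1 wild-type library fell within the sick range. Its tibialis change was -1.06 ± 0.31 (adjusted p = 0.0453) over healthy knock-in and -0.71 ± 0.31 (adjusted p = 0.117) over wild-type, and the contrast with healthy mice did not pass without sick replicate 1 or 2 or healthy replicate 1, 2 or 4 (adjusted p = 0.091 to 0.131). Class I heavy chain genes resemble each other, so reads may be split among H2-K1, H2-D1 and their relatives. H2-D1 and the peptide loading genes Tap1, Tap2 and Tapbp passed in no comparison.

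In sick tibialis 3 of 4 class II genes were lower than in wild-type mice, and the median log2 fold change of the 4 was -2.20, against -0.55 for the class I pathway. H2-Aa and H2-Ab1 encode the alpha and beta chains of the I-A molecule. H2-Aa (ENSMUSG00000036594; GRCm38 chromosome 17, 34282744 to 34287823, minus strand) stood at 2.51, 5.69 and 7.93 CPM in sick libraries, 24.6, 19.4, 13.4 and 16.3 CPM in healthy libraries and 25.8, 15.9, 19.2 and 40.2 CPM in wild-type libraries of tibialis. In gastrocnemius it stood at 6.87, 8.4 and 6.61 CPM in sick libraries, 17.8, 13.2 and 10.2 CPM in healthy libraries and 18.5, 8.42, 22.2 and 28.5 CPM in wild-type libraries, and in quadriceps at 11.7, 18.9 and 23 CPM in sick libraries, 36.6, 26.4, 26.3 and 27 CPM in healthy libraries and 16, 20, 21.5 and 27 CPM in wild-type libraries. Sick tibialis libraries were far below all others, those of gastrocnemius were below with a smaller gap, and those of quadriceps overlapped wild-type. In tibialis H2-Aa changed by -2.28 ± 0.40 (adjusted p = 0.00705) over wild-type and by -1.86 ± 0.41 (adjusted p = 0.0223) over healthy knock-in. The call over wild-type passed without each library in turn, and the other did not pass without sick replicate 1 or 2 or healthy replicate 2 (adjusted p = 0.0545 to 0.076). The gastrocnemius value over wild-type was -1.17 ± 0.41 (adjusted p = 0.0762) and the quadriceps value -0.22 ± 0.24 (adjusted p = 0.544).

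H2-Ab1 (ENSMUSG00000073421; GRCm38 chromosome 17, 34257689 to 34269419, plus strand) stood at 1.65, 4.4 and 6.55 CPM in sick libraries, 20.7, 12.7, 9.12 and 11.8 CPM in healthy libraries and 19.5, 11.5, 13.6 and 27.4 CPM in wild-type libraries of tibialis. It was at 5, 6.21 and 3.57 CPM in sick libraries, 13.4, 8.11 and 6.27 CPM in healthy libraries and 14.3, 8.01, 13 and 16.1 CPM in wild-type libraries of gastrocnemius and at 9.56, 13.9 and 17.4 CPM in sick libraries, 26.6, 17.1, 18.2 and 14.3 CPM in healthy libraries and 13.4, 12.4, 13.3 and 19.6 CPM in wild-type libraries of quadriceps. Sick libraries were the lowest in tibialis and gastrocnemius and overlapped both other states in quadriceps. It changed by -2.21 ± 0.45 (adjusted p = 0.011) over wild-type in tibialis and by -1.23 ± 0.34 (adjusted p = 0.0347) in gastrocnemius, and by -1.79 ± 0.46 (adjusted p = 0.0325) over healthy knock-in in tibialis. The tibialis call over wild-type passed without each library in turn, the gastrocnemius call did not pass without sick replicate 1, 2 or 3 or wild-type replicate 1 or 3 (adjusted p = 0.0644 to 0.108), and the tibialis call over healthy knock-in did not pass without sick replicate 1 or 2 or healthy replicate 1, 2 or 4 (adjusted p = 0.0513 to 0.103). Cd74 (ENSMUSG00000024610; GRCm38 chromosome 18, 60803848 to 60812652, plus strand) was read at 5.32, 13.1 and 21 CPM in sick libraries, 59.9, 45, 30.9 and 40.5 CPM in healthy libraries and 63.7, 34, 41.6 and 87.8 CPM in wild-type libraries of tibialis. The levels were 15.9, 19.2 and 10.7 CPM in sick libraries, 41.2, 32.8 and 23.4 CPM in healthy libraries and 48.9, 23.4, 44 and 60.5 CPM in wild-type libraries of gastrocnemius and 30.4, 40.4 and 55.9 CPM in sick libraries, 84, 58.3, 61.7 and 59.4 CPM in healthy libraries and 39.6, 43.5, 41.5 and 62.9 CPM in wild-type libraries of quadriceps. Sick libraries were again lowest in tibialis and gastrocnemius without overlap. The change of Cd74 was -2.18 ± 0.43 (adjusted p = 0.00936) over wild-type in tibialis and -1.38 ± 0.33 (adjusted p = 0.0235) in gastrocnemius, and -1.89 ± 0.43 (adjusted p = 0.0239) over healthy knock-in in tibialis. The tibialis call over wild-type passed without each library in turn, the gastrocnemius call did not pass without sick replicate 2 or 3 or wild-type replicate 1 (adjusted p = 0.0503 to 0.0806), and the call over healthy knock-in did not pass without sick replicate 1 or 2 or healthy replicate 2 (adjusted p = 0.0621 to 0.0774).

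Whether the sick against wild-type change differs between muscles was tested by an interaction term in a fit of all 32 libraries. No member passed for any of the 3 pairs of muscles by limma-voom (0 of 42 tested at an unadjusted p under 0.05 for tibialis against gastrocnemius, 3 for tibialis against quadriceps and 2 for gastrocnemius against quadriceps), and 0.204%, 0.243% and 0% of all genes passed. The 3 were H2-Aa, H2-Ab1 and Cd74, whose change in tibialis minus that in quadriceps was -2.04 ± 0.54, -2.15 ± 0.53 and -2.07 ± 0.52 (adjusted p = 0.180, 0.113 and 0.130). Libraries of tibialis and quadriceps with the same state and number deviated together. With state and number as a replicate block, the same 3 members passed, at -1.73 ± 0.34, -1.80 ± 0.29 and -1.86 ± 0.32 (adjusted p = 0.0294, 0.00765 and 0.0104), as did 0.263% of all genes. Wild-type tibialis, a reference in both fits, held 64.4 to 82.9 CPM of kidney tubule markers, against 0.48 to 0.863 CPM in wild-type quadriceps. That signal and a difference between muscles cannot be told apart here.

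Markers of cells that carry class II molecules were read beside these genes. The 15 macrophage markers summed to 54.4 to 282 CPM in sick tibialis, 130 to 436 CPM in healthy and 94.3 to 248 CPM in wild-type tibialis. In quadriceps the sums were 360 to 485 CPM in sick, 291 to 397 CPM in healthy and 189 to 298 CPM in wild-type muscle, and 4 of 14 markers tested were higher in sick than in wild-type mice, against 10.5% of all genes. In gastrocnemius they were 117 to 342 CPM in sick, 122 to 197 CPM in healthy and 138 to 223 CPM in wild-type muscle. Of the markers, 1 of 15 was lower in sick than in wild-type tibialis, and 0 of 15 changed in gastrocnemius by limma-voom (1 at an unadjusted p under 0.05). The dendritic cell marker Cd209a was lower in sick muscle in all 6 comparisons, with log2 values from -2.54 to -1.31, and was the only one of its list to pass in any of them. The 9 dendritic cell markers summed to 9.97 to 16.2, 12.1 to 20.2 and 10.9 to 14.5 CPM in sick gastrocnemius, quadriceps and tibialis. Wild-type sums overlapped these, at 12.8 to 16.2, 14.2 to 19.7 and 11.9 to 17.1 CPM. Of 10 fibro-adipogenic progenitor markers, 5, 3 and 6 were lower than wild-type in sick gastrocnemius, quadriceps and tibialis, against 6.52%, 7.49% and 9.61% of all genes. Their sums overlapped in each muscle, at 1340 to 2510, 2250 to 2820 and 690 to 1420 CPM in sick and 2390 to 3410, 2360 to 2970 and 1380 to 1930 CPM in wild-type libraries. The part of these cells in the result was not tested. Of 11 kidney tubule markers tested in tibialis, all were lower than wild-type in sick and in healthy mice alike. None passed between sick and healthy tibialis (3 at an unadjusted p under 0.05 by limma-voom), where these markers summed to at most 2.24 CPM. The part of the kidney signal in the tibialis values was not tested.

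**Figure D4:**
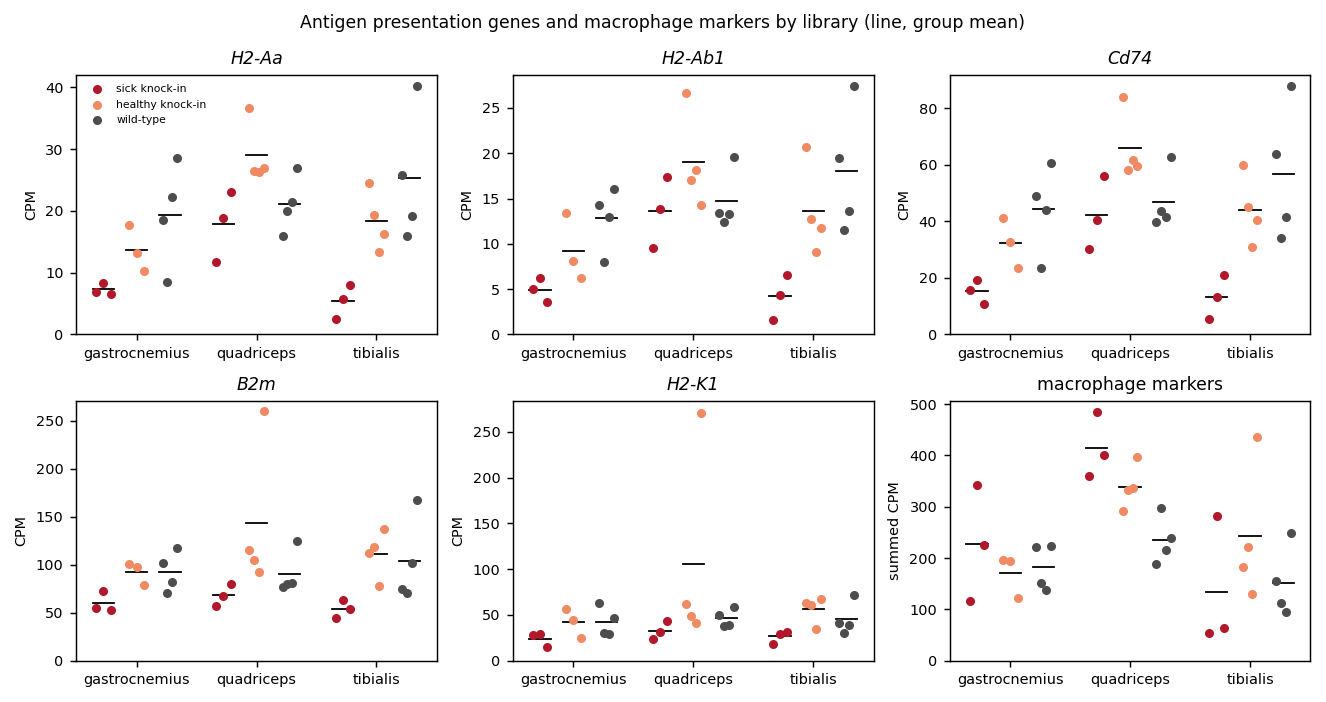
CPM of 5 antigen presentation genes and the summed CPM of 15 macrophage markers in each library (points) with the group mean (line). The sick tibialis libraries of H2-Aa, H2-Ab1 and Cd74 lie below all healthy and wild-type ones, whereas sick quadriceps libraries overlap wild-type and hold 360 to 485 CPM of macrophage markers.

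H2-Eb1 (ENSMUSG00000060586; GRCm38 chromosome 17, 34305867 to 34316674, plus strand), the beta chain of the I-E molecule, did not follow the other class II genes, and was singled out after its values were seen. It stood at 0.245, 2.2 and 4.02 CPM in sick libraries, 11.1, 0.888, 0.434 and 0.286 CPM in healthy libraries and 10.6, 1.44, 0.87 and 1.28 CPM in wild-type libraries of tibialis. In gastrocnemius it stood at 0.0694, 2.97 and 0.21 CPM in sick libraries, 6.67, 0.931 and 0.784 CPM in healthy libraries and 7.14, 0.724, 0.911 and 1.74 CPM in wild-type libraries, and in quadriceps at 4.7, 0.465 and 9.2 CPM in sick libraries, 13.1, 1.2, 1.14 and 0.828 CPM in healthy libraries and 6.63, 1.27, 0.86 and 1.31 CPM in wild-type libraries. High libraries occurred in every state, and the ranges overlapped throughout. The ratio of its count to that of H2-Aa fell into 2 separate ranges, 0.354 to 0.507 in 11 libraries and 0.0101 to 0.0976 in the other 21. The 11 were sick replicate 2, healthy replicate 1 and wild-type replicate 1 in all 3 muscles, and sick replicate 4 in quadriceps and tibialis. For all 12 combinations of state and number with libraries of 2 or more muscles, every muscle fell in the same range. The ratio of H2-Ab1 to H2-Aa ran from 0.531 to 0.952 over the same 32 libraries. The change of H2-Eb1 in sick over wild-type mice was -1.72 ± 1.43 (adjusted p = 0.425), 1.20 ± 1.0 (adjusted p = 0.415) and -0.63 ± 1.17 (adjusted p = 0.723) in gastrocnemius, quadriceps and tibialis.

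**Figure D5:**
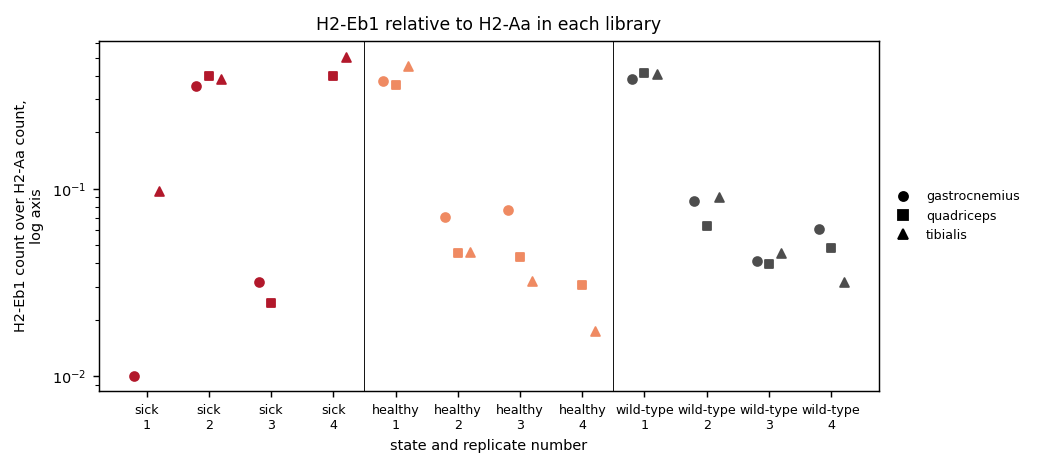
The H2-Eb1 count divided by the H2-Aa count (log axis) in each library, by state and replicate number, with a symbol per muscle. The ratios lie at 0.354 to 0.507 or at 0.0101 to 0.0976, and libraries that share a state and number lie in the same range.

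Healthy knock-in muscle, set against wild-type, asks what the alleles bring without sickness. No member passed in any muscle by limma-voom or limma-trend, with 3 of 40, 6 of 41 and 1 of 40 at an unadjusted p under 0.05 in gastrocnemius, quadriceps and tibialis by limma-voom, and 0.00706%, 0.0362% and 0.496% of all genes passed. The median log2 fold change of the members was -0.22, 0.43 and -0.01. In quadriceps Igtp was at 0.81 ± 0.21 (adjusted p = 0.752) and Cxcl9 at 1.73 ± 0.52 (adjusted p = 0.921). Healthy replicate 1 of quadriceps held 18.3 CPM of Ifit1, 26.5 CPM of Ifit3 and 10.7 CPM of Isg15, against at most 2.25, 2.96 and 1.76 CPM in the other 3 healthy libraries. Healthy replicate 4 held 260 CPM of B2m and 271 CPM of H2-K1, against at most 115 and 61.7 CPM in the others. Weights for sample quality, which count deviating libraries less, gave 1 member higher in healthy quadriceps.

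Between muscles of wild-type mice 1 member passed. Between tibialis and quadriceps, Cxcl9 was higher in tibialis (1.71 ± 0.37, adjusted p = 0.0190), with 3.27, 1.35, 2.39 and 2.78 CPM in tibialis and 0.863, 0.52, 0.758 and 1.22 CPM in quadriceps and no overlap, and 3.58% of all genes were higher. The call was lost without wild-type replicate 1, 2 or 3 (adjusted p = 0.0720 to 0.146). Wild-type tibialis held 64.4 to 82.9 CPM of kidney tubule markers and wild-type quadriceps 0.48 to 0.863 CPM. Muscle and that signal cannot be told apart in contrasts with wild-type tibialis. Tibialis and quadriceps libraries with the same number deviated together, and with the number as a replicate block 3 members passed, Cxcl9 (1.56 ± 0.20, adjusted p = 0.00167), Xaf1 (0.53 ± 0.13, adjusted p = 0.0296) and Gbp7, which was lower in tibialis (-1.07 ± 0.22, adjusted p = 0.0178), as did 10.9% of all genes. No member passed between tibialis and gastrocnemius or between gastrocnemius and quadriceps by limma-voom (2 and 3 of 40 at an unadjusted p under 0.05), where 2.58% and 1.07% of all genes did. With the number as a block, Cxcl9 passed between tibialis and gastrocnemius (0.86 ± 0.18, adjusted p = 0.0243 by limma-voom), as did 4.79% of all genes. Of those 4 same-numbered pairs, 2 correlated above 0.1. Gastrocnemius and quadriceps libraries with the same number also deviated together, and the block there called no member by limma-voom (6 at an unadjusted p under 0.05).

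Other genes of the pathway were read from lists set by function, beside 6.52%, 7.49% and 9.61% of all genes lower and 8.22%, 10.5% and 8.44% higher in sick than in wild-type gastrocnemius, quadriceps and tibialis. Of 38 further interferon-stimulated genes, 28, 31 and 29 were tested in gastrocnemius, quadriceps and tibialis. Against wild-type 5, 1 and 10 were lower and 1, 0 and 1 higher in sick muscle, with median log2 fold changes of -0.71, -0.38 and -0.68. Dtx3l and Parp9, partners in ADP-ribosylation and ubiquitination, were among them. Dtx3l changed by -0.79 ± 0.17, -1.01 ± 0.29 and -0.76 ± 0.21 in the 3 muscles (adjusted p = 0.0152, 0.0355 and 0.0298), and Parp9 by -0.70 ± 0.18 in gastrocnemius and -0.94 ± 0.17 in tibialis (adjusted p = 0.0301 and 0.00750). Among genes of interferon receptors and their signalling, Ifngr2, a chain of the interferon gamma receptor, was lower in gastrocnemius (-1.10 ± 0.22, adjusted p = 0.0121) and Irf5, an interferon regulatory factor, in tibialis (-3.52 ± 0.41, adjusted p = 0.000632). Of 9 class II processing genes tested, 1, 0 and 4 were lower and 0, 2 and 0 higher. H2-DMa, a chain of the peptide exchange factor, changed by -1.14 ± 0.30 in gastrocnemius and by -1.63 ± 0.29 in tibialis (adjusted p = 0.0280 and 0.00738). Of 10 immunoproteasome and peptide loading genes, 2, 0 and 2 were lower and none higher, with Psme1, an activator subunit of the proteasome, at -1.14 ± 0.26 in gastrocnemius and -1.18 ± 0.23 in tibialis (adjusted p = 0.0179 and 0.00966). Of the sensing genes tested 1 of 13, 1 of 14 and 2 of 14 were lower and none higher, and of 10 non-classical class I genes 0, 0 and 1 were lower and none higher. For the sensing and the non-classical class I genes, these shares are near or below those of all genes. The tibialis values of this paragraph are over wild-type libraries with 64.4 to 82.9 CPM of kidney tubule markers. State and that signal cannot be told apart in them.

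The authors' deposited table of comparisons was read for the same 43 members. At its adjusted p under 0.05 it lists 13, 5 and 15 members as lower in sick than in wild-type gastrocnemius, quadriceps and tibialis, of which 9, 5 and 11 were called here. The authors' deposited table lists 6, 13 and 9 as lower in sick than in healthy mice, of which 3, 5 and 8 were called here, and 0 between healthy and wild-type. It lists none as higher.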

How the data were processed

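Per the file headers, the deposited table holds raw counts by gene for every library, beside log2 fold changes and adjusted p-values from the authors. The submitters' processing notes name cutadapt 1.18, TopHat2 2.1.1, HTSeq 0.6.0 and DESeq2 1.22.1, on GRCm38. The sources used here state neither settings, nor strand option, nor annotation release, so reads of overlapping, antisense or near-identical genes may not be told apart. The table marks 6252 genes as without value, so its raw columns were not treated as a pure count table, a count model was not run and limma-voom took the place of the quasi-likelihood test written in the design. Each of 42 replicate pairs differed by more than sampling noise, with a chi-square of 13.3 to 220 per gene.

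The counts were fitted with limma 3.58.1 in R 4.3.3. A gene was tested in a muscle if enough libraries to fill the smallest group reached the CPM that 10 counts make at median depth, and its counts summed to at least 15. Totals were scaled by TMM (trims 0.3 and 0.05), and 0.5 was added before the logarithm. The 3 states of a muscle shared a model with voom weights and robust moderation. Adjusted p-values are Benjamini-Hochberg over all genes of a comparison, at 0.05. The code was tested on simulated data. Alternatives were another scaling, no filter, the compared libraries alone, all libraries, limma-trend, quality weights, a replicate block and each library left out. Same-numbered libraries of different states did not deviate together (correlations -0.17 to 0.26 over 29 pairs), so numbers do not pair states. Across muscles they did in 26 of 28 pairs (0.02 to 0.56), and in every pair of quadriceps with tibialis or gastrocnemius, where the report gives blocked values that change a call.

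Coordinates and exonic lengths are from GENCODE vM21 (GRCm38), matched by identifier for all 43 members. Library values are given for up to 3 members of a role called in most comparisons, or else the most highly read, and any member past the threshold may be named. Other genes are those of lowest adjusted p in their list. H2-Eb1, Irgm1, Irf8, Tgtp2 and the libraries singled out were chosen after their values were seen. Members and lists were chosen with earlier results of these data known. One gene of the receptor and signalling list is not reported here, nor are that list's counts.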

Additional observations from a re-analysis of the deposited data

Results flagged for a closer look

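Each of the 43 members was tested for an outlying CPM value in each group of 4 libraries, which made 215 tests. An outlying value was found in 41, with 37 high and 4 low. There the gap to the nearest library, divided by the range, was above the critical value of Dixon's test. A single test gives about 1 in 20 by chance. The tests share libraries and used CPM without a logarithm, so the 41 cannot be set against that rate. Quadriceps healthy replicate 1 held 10 of the 41, all high. It had 3.2 CPM of Cxcl10, 22.1 CPM of Irf7 and 22.1 CPM of Irgm1. Its antiviral effectors stood at 18.3 CPM for Ifit1, 23.2 CPM for Ifit2, 26.5 CPM for Ifit3 and 10.7 CPM for Isg15, and the next healthy quadriceps library held 4.26 CPM of Ifit2 and 4.85 CPM of Irf7. Its class II genes stood at 36.6 CPM for H2-Aa, 13.1 CPM for H2-Eb1 and 84 CPM for Cd74. Healthy replicate 4 of the same muscle was high in the class I genes, with 260 CPM of B2m, 271 CPM of H2-K1 and 395 CPM of H2-D1, against at most 153 CPM of H2-D1 in the others.

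Wild-type replicate 4 held high outlying values of some members in every muscle. Over all members its median log2 ratio to the wild-type mean was 0.21, 0.07 and 0.36 in gastrocnemius, quadriceps and tibialis. In quadriceps it held 16.2 CPM of Iigp1, 0.875 CPM of Tgtp2, 125 CPM of B2m, 5.77 CPM of Tap1, 19.6 CPM of H2-Ab1 and 62.9 CPM of Cd74. In tibialis it held 4.97 CPM of Nlrc5, 14.5 CPM of Igtp, 22.9 CPM of Iigp1 and 14.7 CPM of Gbp4. In gastrocnemius it held 4.38 CPM of Nlrc5, 18.6 CPM of Iigp1 and 176 CPM of H2-D1. The other wild-type libraries held at most 6.36 CPM of Iigp1.

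H2-Eb1 was high in healthy replicate 1 of tibialis, at 11.1 CPM, and in wild-type replicate 1 of gastrocnemius, quadriceps and tibialis, at 7.14, 6.63 and 10.6 CPM. Single values stood apart elsewhere. Tibialis wild-type replicate 3 had 16.8 CPM of Irf1 and 2.39 CPM of Isg15, both high, and a low 8.19 CPM of Irf9. Tapbp was high in gastrocnemius wild-type replicate 1 (41.8 CPM), and Cxcl10 in tibialis healthy replicate 1 (0.273 CPM) and wild-type replicate 2 (0.254 CPM). Tgtp2 was high in tibialis healthy replicate 2 (0.755 CPM) and Oas1a in tibialis healthy replicate 4 (0.954 CPM), where Gbp9 was low (4.77 CPM). Usp18 was low in gastrocnemius wild-type replicate 3 (0.82 CPM) and Stat2 in quadriceps wild-type replicate 3 (8.01 CPM).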

How the results depend on the processing

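For 48 gene results, 672 alternative values gave 447 on the same side of the threshold, 225 with the call lost and 0 reversed. Median-of-ratios scaling moved the median of all genes by at most 0.022 log2. With only the compared libraries fitted, members called between sick and healthy mice numbered 6 in gastrocnemius, 2 in quadriceps and 0 in tibialis. Limma-trend called 5 for that contrast in gastrocnemius. Without a filter on low counts, 9 members were called in sick against wild-type tibialis and 2 between wild-type tibialis and quadriceps. Quality weights called 1 in healthy against wild-type quadriceps. Without healthy replicates 1 and 4, chosen after seeing the data, 2 were called in sick against healthy quadriceps. Numbers do not pair states, and 6 of 29 same-numbered pairs correlated above 0.1. A replicate block gave 2 in quadriceps and 8 in tibialis for sick against wild-type, and 5 in gastrocnemius and 6 in tibialis for sick against healthy. Across muscles the block gave 3 for the tibialis against quadriceps difference, 1 between wild-type tibialis and gastrocnemius (Cxcl9, 0.86 ± 0.18, adjusted p = 0.0243 by limma; 2 of those 4 pairs correlated above 0.1) and 3 between wild-type tibialis and quadriceps. Leaving out 1 library gave 0 to 7, 1 to 5 and 5 to 10 members for sick against wild-type in gastrocnemius, quadriceps and tibialis, 1 to 4, 2 to 6 and 0 to 12 for sick against healthy, and 0 to 3 between wild-type tibialis and quadriceps. It gave 0 throughout for healthy against wild-type and for the interactions. The cause of these shifts was not tested. Low counts limit Cxcl9, Ifit1, Ifit3, Usp18 and Ciita, and members below the filter have no test.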

Other observations

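A few genes of the wider pathway were higher in sick muscle. Irf2, which encodes a factor that competes with IRF1 for its sites, was higher than in wild-type mice in gastrocnemius (0.71 ± 0.19, adjusted p = 0.0329 by limma) and quadriceps (0.80 ± 0.18, adjusted p = 0.0164). Ifitm1, an interferon-induced membrane protein gene, was higher in gastrocnemius (1.24 ± 0.34, adjusted p = 0.0346) and tibialis (1.61 ± 0.45, adjusted p = 0.0319). Ifi30, a lysosomal thiol reductase gene of class II processing, was higher in quadriceps (2.03 ± 0.53, adjusted p = 0.0284), as was the protease gene Ctss (1.25 ± 0.37, adjusted p = 0.0397). The macrophage markers Lyz2 (1.20 ± 0.26), C1qa (0.89 ± 0.21), Cd163 (1.32 ± 0.33) and Cd68 (0.93 ± 0.26) were higher in the same muscle, and their part in these values was not tested. Against healthy mice, Mavs, the adaptor of RNA sensors, was higher in sick gastrocnemius (0.77 ± 0.21, adjusted p = 0.0357) and quadriceps (0.54 ± 0.15, adjusted p = 0.0302).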
